A study of Mus musculus with 6 samples.

Results

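A set of 10 genes of the calcium, calcineurin and NFAT pathway were followed in CD4-enriched thymocytes that had lost Klf4. They were listed by role and read from every array probe that carries one of their symbols in the platform's annotation. Of 10 genes, 8 had a probe in the table used here, 19 probes in all, out of 16593 gene symbols and 25697 probes on the whole array. Stim2, a calcium sensor of the endoplasmic reticulum, and Itpr1, an inositol trisphosphate receptor, were not analysed here, since no probe in the table bears their symbol.

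The arrays compared thymocytes of 3 Klf4fl/fl-CD4-Cre+ mice, called KO below, with those of 3 Klf4fl/fl-CD4-Cre- mice, called control. The floxed Klf4 alleles were shared by both genotypes, as were the C57/BL6 background and the age range of 8 to 10 weeks. Cre was driven by Cd4 regulatory sequence, so deletion begins in thymocytes that express CD4, and the cells taken (DP+SP4) were the CD4 CD8 double-positive and the CD4 single-positive stages together. They were enriched by CD4 with a kit of either of 2 makers, and which mouse had which kit is not stated. Cells were taken straight from the thymus, without any stimulation recorded in the labels, and 1 array was hybridised per mouse.

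In T cells, binding of the antigen receptor activates phospholipase C gamma, and the inositol trisphosphate that it makes opens receptor channels in the endoplasmic reticulum. STIM proteins sense the emptied store and open ORAI channels in the plasma membrane, and the sustained entry of calcium activates calmodulin and then the phosphatase calcineurin. Calcineurin removes phosphates from NFAT factors, which enter the nucleus, while kinases such as GSK3 and the DYRK and casein kinase families return them to the cytoplasm. In the thymus this route takes part in positive selection. Most of its steps are changes of protein state, which an mRNA array does not measure.

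No probe of these genes passed the threshold between the genotypes. With limma over all 15418 probes above the brightness filter, 0 of the 15 member probes tested had an adjusted p under 0.05, and over all probes 2 did, or 0.013%, both of them probes of Klf4. At an unadjusted p under 0.05 there were 3 member probes, 2 higher in KO mice (on Nfatc2 and Nfatc3) and 1 lower (also on Nfatc2), against 8.82% of all probes tested, 4.07% higher and 4.75% lower. The KO and control mice did not overlap on 1 member probe in the higher direction, against 6.62% of all probes, and on 1 in the lower direction, against 7.45%. Both of these are Nfatc2 probes that lay above the 40th percentile, the filter, in the higher group alone, so these counts describe the probes and support nothing. With the filter at the 60th percentile, which leaves both out, 1 member probe, on Nfatc3, had an unadjusted p under 0.05 (10.2% of all probes), and 0 had groups apart (15.8%). The median difference of the 15 probes was 0.0122, with 8 above 0 and 7 below, and that of all probes tested was -0.000353. Scores are in z units, SDs of the probes of one array, and no fold change can be given from them. Since the RNA came from a mixed cell suspension, fewer cells of a type and less RNA per cell cannot be told apart.

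Klf4 itself held both called probes. On probe ILMN_1241903 it read -0.555, -0.758 and -0.696 z units in KO mice 1 to 3, against 0.0498, 0.109 and -0.145 in control mice 1 to 3, and on ILMN_1221264 the mean was -0.687 ± 0.0444 in KO mice and -0.311 ± 0.104 in control mice (SD, n = 3 each). Both probes fell in KO mice, with differences of -0.674 (limma adjusted p = 0.00264) and -0.376 (limma adjusted p = 0.046). Probe ILMN_2999439 had means of 0.516 in KO mice and 0.479 in control mice and did not pass, and whether the sequence it detects was deleted is not known from these files.

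Control 3 stood apart from the other mice. Xist, the RNA that coats the inactive X chromosome, read 2.12 on probe ILMN_3022688 in control 3, with the remaining mice between -0.558 and -0.404. The Y-linked gene Eif2s3y read -0.834 in control 3, with the remaining mice between 1.53 and 1.89. The labels do not give the sex of any mouse, and member differences that move by over 1.5 times without control 3 are given both ways below. The thymocyte markers Cd8b1, Cd3e, Cd3d, Rag1 and Dntt lay above the 98th percentile of the array on average in both genotypes and Cd4 near the 87th, while the Cd8a probe was dim in both genotypes. Across the 9 probes of 8 thymocyte markers the median percentile was 98.5 to 98.7 in KO mice and 98.7 to 98.9 in control mice. These ranges do not overlap, but on every array the median was the Rag1 probe, so they describe 1 probe. Over all probes tested, 7.45% had groups apart in the lower direction. Of these markers Dntt, the terminal transferase of double-positive cells, had an unadjusted p under 0.05, with a difference of -0.137 (limma unadjusted p = 0.00747, adjusted p = 0.415). No marker probe of B, myeloid, NK, epithelial or endothelial cells had an unadjusted p under 0.05 among those tested, and the endothelial ones tested were all of Pecam1. The fibroblast probes, of Col1a1 and Col3a1, were too dim to test. The 2 erythroid probes were too dim to test, and of these Hba-a1, a haemoglobin chain, differed by -0.114. The part of either kind of marker in the member results was not tested.

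Nfatc2 and Nfatc3 are the genes with the largest member differences, and each has a pair of annotated start sites in RefSeq (GRCm38.p6). Their 250 bases upstream of each start are shown because the deleted factor belongs to a family that binds CACCC boxes. Capitals mark CACCC or its reverse complement GGGTG, searched on both strands.
Nfatc2 start site a, chr2:168601658-168601907, - strand: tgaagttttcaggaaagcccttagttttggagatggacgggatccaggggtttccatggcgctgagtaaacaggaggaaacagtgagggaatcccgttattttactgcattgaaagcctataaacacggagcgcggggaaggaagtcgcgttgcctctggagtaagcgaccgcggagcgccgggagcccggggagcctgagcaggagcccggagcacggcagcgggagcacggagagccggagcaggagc
Nfatc2 start site b, chr2:168590366-168590615, - strand: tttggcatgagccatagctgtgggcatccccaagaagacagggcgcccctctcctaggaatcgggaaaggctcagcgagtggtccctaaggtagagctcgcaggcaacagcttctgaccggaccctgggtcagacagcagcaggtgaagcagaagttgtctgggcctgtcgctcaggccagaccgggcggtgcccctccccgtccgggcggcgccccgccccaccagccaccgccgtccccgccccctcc
Nfatc3 start site a, chr8:106058568-106058817, + strand: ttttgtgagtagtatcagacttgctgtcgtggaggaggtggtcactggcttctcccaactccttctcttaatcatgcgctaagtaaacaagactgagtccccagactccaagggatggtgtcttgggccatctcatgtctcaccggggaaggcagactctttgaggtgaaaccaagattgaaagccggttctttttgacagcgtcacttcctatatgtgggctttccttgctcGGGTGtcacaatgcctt
Nfatc3 start site b, chr8:106059340-106059589, + strand: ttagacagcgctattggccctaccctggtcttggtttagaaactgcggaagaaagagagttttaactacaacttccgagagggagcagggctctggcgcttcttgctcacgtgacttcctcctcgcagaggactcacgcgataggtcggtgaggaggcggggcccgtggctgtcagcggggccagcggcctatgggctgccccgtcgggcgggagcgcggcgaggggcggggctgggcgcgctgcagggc
Of these 4 windows only the one at start site a of Nfatc3 holds the box, in 1 copy. Among 32851 upstream windows of the same length in the RefSeq table, 52.0% hold at least 1 copy. Upstream windows of 7 of the 10 genes were kept. None were used for Nfatc1, Ppp3ca and Itpr1. Windows on 1 chromosome were left out of the search of members, which need not account for all of these genes. The core letters of an NFAT site, GGAAA or TTTCC, occur 3 times and 1 time upstream of Nfatc2 and 1 time and 0 times upstream of Nfatc3, in the order shown, and in 55.6% of all windows. A match of letters is a description of sequence and says nothing of binding in these cells. Which probe reports which start site is not given in the sources used here.

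Nfatc3, the NFAT factor known in mice for its abundance in double-positive thymocytes and its part in their selection, had the largest member difference in size. Its 1 probe, ILMN_2659540, read 2.39, 2.21 and 2.10 z units in KO mice 1 to 3, against 2.15, 1.93 and 2.0 in control mice 1 to 3. KO 1 and KO 2 lay above all controls, and KO 3 lay below control 1, so the groups overlapped. The means were 2.23 ± 0.147 in KO mice and 2.03 ± 0.11 in control mice (SD, n = 3 each). They differed by 0.208 (SE 0.0727, 95% interval 0.051 to 0.365), which did not pass (limma unadjusted p = 0.0133, adjusted p = 0.455). KO 1 weighed most on it, and without KO 1 the difference was 0.13. Without KO 3 it was 0.275, with an adjusted p of 0.221, the lowest of 0.221 to 0.754 over its 14 alternatives.

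Nfatc2, a factor known as the main NFAT protein of resting peripheral T cells, was read by 5 probes annotated to 3 RefSeq transcripts, and its tested probes lay on opposite sides of 0. On ILMN_2761672 the KO mice read -0.504, -0.493 and -0.553, against -0.667, -0.731 and -0.592 in the controls. All KO values lay above all control values, a difference of 0.146 (SE 0.0428, 95% interval 0.054 to 0.239, limma adjusted p = 0.398). On ILMN_3082773 the KO mice read -0.716, -0.527 and -0.589, against -0.479, -0.525 and -0.468 in the controls. Here the KO values lay below the control values, with KO 2 and control 2 almost level, and the difference was -0.12 (SE 0.0485, 95% interval -0.225 to -0.0155, limma adjusted p = 0.498). Without KO 1, the lowest of the 6 values, it was -0.0673. Without control 3 it was -0.109 (limma unadjusted p = 0.0763). The probes are annotated to different transcripts of the gene, and both sat low on the array, at mean percentiles of 47.7 in KO mice and 30.3 in control mice for the first and 36.7 in KO mice and 49.8 in control mice for the second. The first was thus above the 40th percentile in KO mice alone and the second in control mice alone, and each was tested through the group where it was high. The other 3 Nfatc2 probes were too dim to test and differed by 0.0311, 0.0364 and -0.00625.

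Nfatc1, the family member known to be induced through its own calcium-dependent loop, was read by 6 probes, 3 for each of 2 annotated transcripts, and all were bright enough to test. Its differences ran between -0.025 and 0.0897, with 5 of 6 above 0, and no interval excluded 0. The 3 probes of the first transcript, ILMN_1216522, ILMN_2648455 and ILMN_2648704, differed by 0.0512, 0.0809 and 0.067. The 3 probes of the second, ILMN_1224430, ILMN_2647734 and ILMN_2647739, differed by -0.025, 0.0122 and 0.0897. The lowest adjusted p among the 6 was 0.677, on ILMN_2647739. Without control 3 the difference of ILMN_1224430 was -0.00029 and that of ILMN_2647734 was 0.0377.

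On 2 of the first transcript's 3 probes, ILMN_2648455 and ILMN_2648704, control 3 was unlike the other controls. ILMN_2648455 read 1.65, 1.53 and 1.6 in KO mice 1 to 3, against 1.44, 1.38 and 1.72 in control mice 1 to 3. Control 3 was the highest of the 6 mice and controls 1 and 2 were the lowest. The difference was 0.0809 (SE 0.0762) over all mice and 0.184 without control 3 (limma unadjusted p = 0.00599, adjusted p = 0.44, against 0.44 to 0.98 over its 14 alternatives). Without control 2, the lowest mouse, it was 0.0146, without control 1 it was 0.0438 and without KO 1 it was 0.0536.

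ILMN_2648704 followed the same order at its extremes, with 0.443, 0.36 and 0.377 in KO mice, against 0.296, 0.23 and 0.453 in control mice. Its difference was 0.067 over all mice and 0.131 without control 3 (limma unadjusted p = 0.0499, adjusted p = 0.554, against 0.554 to 0.971 over its alternatives). Without control 2, its lowest mouse, the difference was 0.0187, and without KO 1 it was 0.0421. On ILMN_2647739, a probe of the second transcript, control 3 was instead the lowest mouse at 0.0588, and without it the difference was 0.0572. The third probe of the first transcript, ILMN_1216522, had control 3 within the range of the KO mice and a difference of 0.0321 without control 2. Leaving out control 3 thus brought the member probes at an unadjusted p under 0.05 to 4, all higher in KO mice. In the same fit 9.01% of all probes met that mark, counting both directions. All 4 are of NFAT genes, which hold 9 of the 15 tested member probes. Among the 4 is Nfatc2 probe ILMN_2761672, tested through the group where it was high, so the count supports nothing. None passed after adjustment.

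**Figure D1:**
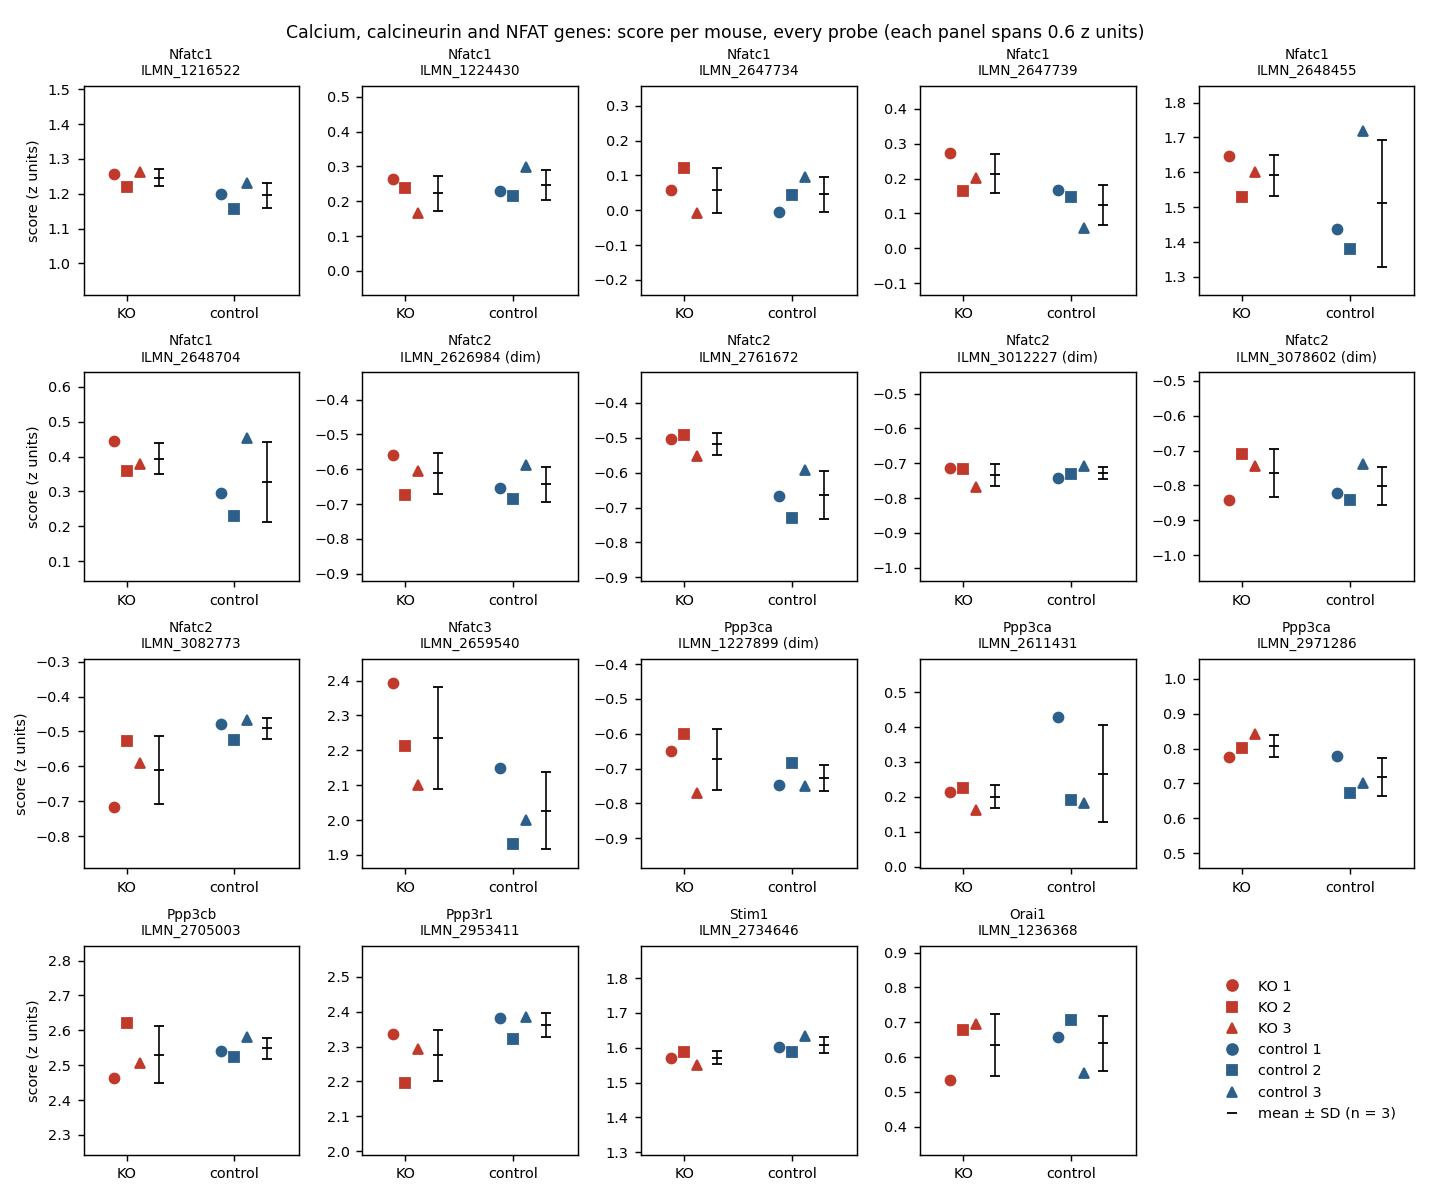
Score per mouse in z units for all 19 probes of the 8 genes read, with KO mice on the left and control mice on the right of each panel. Points are single mice, the black bar is the mean with the SD (n = 3), all panels span the same height on their own level, and dim probes were not tested. Control 3 lies above the other controls on Nfatc1 probes ILMN_2648455 and ILMN_2648704, and the groups are apart on Nfatc2 probes ILMN_2761672 and ILMN_3082773.

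Calcineurin is a pair of a catalytic and a regulatory subunit, and on its 4 tested probes the groups overlapped and no unadjusted p was under 0.05. Ppp3cb, the beta catalytic subunit, read 2.46, 2.62 and 2.51 in KO mice, against 2.54, 2.52 and 2.58 in control mice. KO 2 was the highest mouse and KO 1 the lowest, and the difference was -0.0185 (95% interval -0.126 to 0.0884, limma adjusted p = 0.948). It was 0.0144 without KO 1, -0.0644 without KO 2 and -0.00176 without control 3.

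Ppp3ca, the alpha catalytic subunit, gave tested differences of opposite sign on its probes. ILMN_2971286 read 0.777, 0.803 and 0.841 in KO mice, against 0.779, 0.673 and 0.7 in control mice, where only KO 1 fell within the controls' range. The difference was 0.0894 (SE 0.0535, limma adjusted p = 0.666). ILMN_2611431 differed by -0.0662 and its controls were spread from 0.182 to 0.429, with KO mice at 0.162 to 0.226. Control 1, the high mouse, set that sign, since without it the difference was 0.0147, while without control 3 it was -0.109. The dim probe ILMN_1227899 differed by 0.0532.

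Ppp3r1, the calcium-binding regulatory subunit without which the catalytic chains are inactive, was lower on average in KO mice without passing. It read 2.34, 2.20 and 2.29 in KO mice, against 2.38, 2.32 and 2.38 in control mice. KO 1 lay just above control 2, and the other KO mice lay below all controls. The means were 2.27 ± 0.0728 in KO mice and 2.36 ± 0.0354 in control mice (SD, n = 3 each). They differed by -0.087 (SE 0.0495, 95% interval -0.194 to 0.0197, limma adjusted p = 0.647). Without KO 2, the lowest mouse, the difference was -0.047.

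The genes of calcium entry likewise showed overlapping groups. Stim1, the store sensor, read 1.57, 1.59 and 1.55 in KO mice, against 1.6, 1.59 and 1.63 in control mice. KO 2 and control 2 were level, and the difference was -0.0375 (SE 0.0469, 95% interval -0.139 to 0.0637, limma adjusted p = 0.853). It was -0.0248 without control 3. Orai1, the pore subunit of the store-operated channel, read 0.533, 0.677 and 0.696 in KO mice, against 0.659, 0.706 and 0.553 in control mice. The groups overlapped over most of their range, and the difference of -0.00406 (SE 0.0626, 95% interval -0.139 to 0.131, limma adjusted p = 0.993) took the opposite sign without KO 1, control 1 or control 2 and was -0.0471 without control 3.

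Over the 15 tested probes the lowest bound of any 95% interval was -0.225, on Nfatc2, and the highest was 0.365, on Nfatc3. All 15 intervals thus lay within 0.4 z units either side of 0. This describes the fit with all 6 arrays, with each interval taken by itself and not jointly over the 15 probes. It is neither a ceiling on the differences nor a proof of equality. Without KO 3 the Nfatc3 difference was 0.275 (SE 0.0731). A z unit need not stand for the same change in RNA at low and at high signal.

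**Figure D2:**
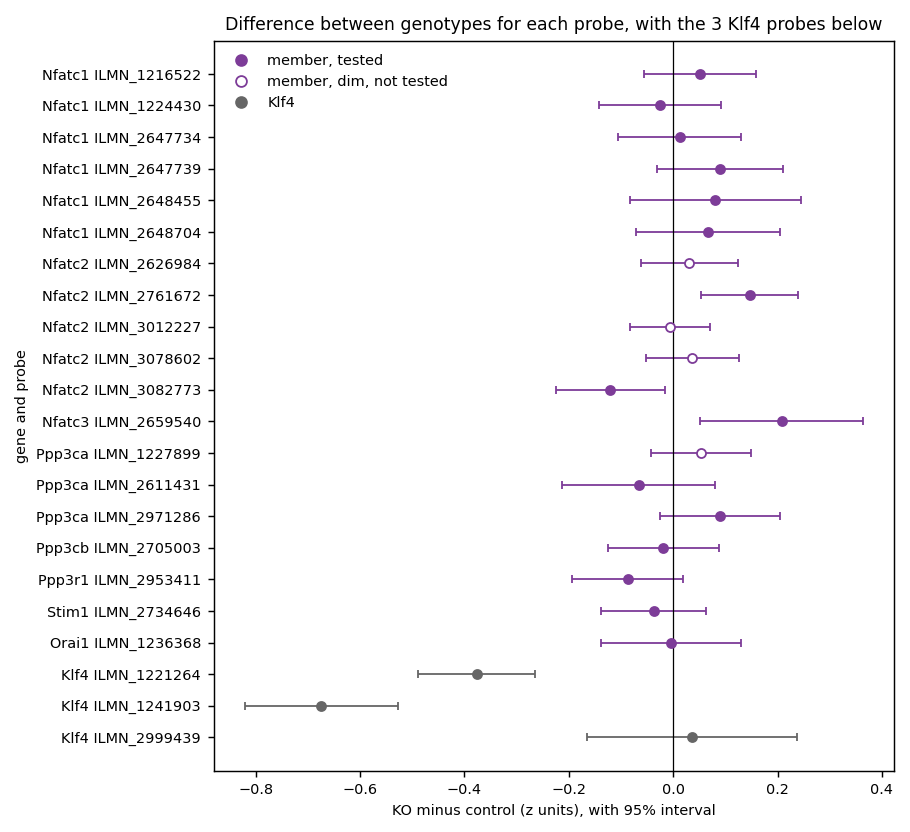
Difference KO minus control in z units for each probe with its 95% interval, filled where tested and open where dim, with the 3 Klf4 probes in grey at the bottom. The 2 called Klf4 probes lie at -0.674 and -0.376, and 3 member intervals exclude 0, on Nfatc2 (both directions) and Nfatc3.

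With each mouse left out in turn, no member probe passed the threshold. The Nfatc3 probe, Nfatc2 probe ILMN_2761672, Nfatc1 probes ILMN_1216522, ILMN_2647739, ILMN_2648455 and ILMN_2648704 and Ppp3ca probe ILMN_2971286 stayed above 0 in all 6 such fits. Nfatc2 probe ILMN_3082773, Ppp3r1 and Stim1 stayed below 0 in all 6. For the other 5 probes the sign depended on the mice kept. On both tested Nfatc2 probes the groups did not overlap, so leaving out a mouse could not turn the sign. Each of these Nfatc2 probes was also tested through the group where it was high, so their steady signs support nothing. The lowest adjusted p of a member probe in these fits was 0.221, on Nfatc3 without KO 3.

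**Figure D3:**
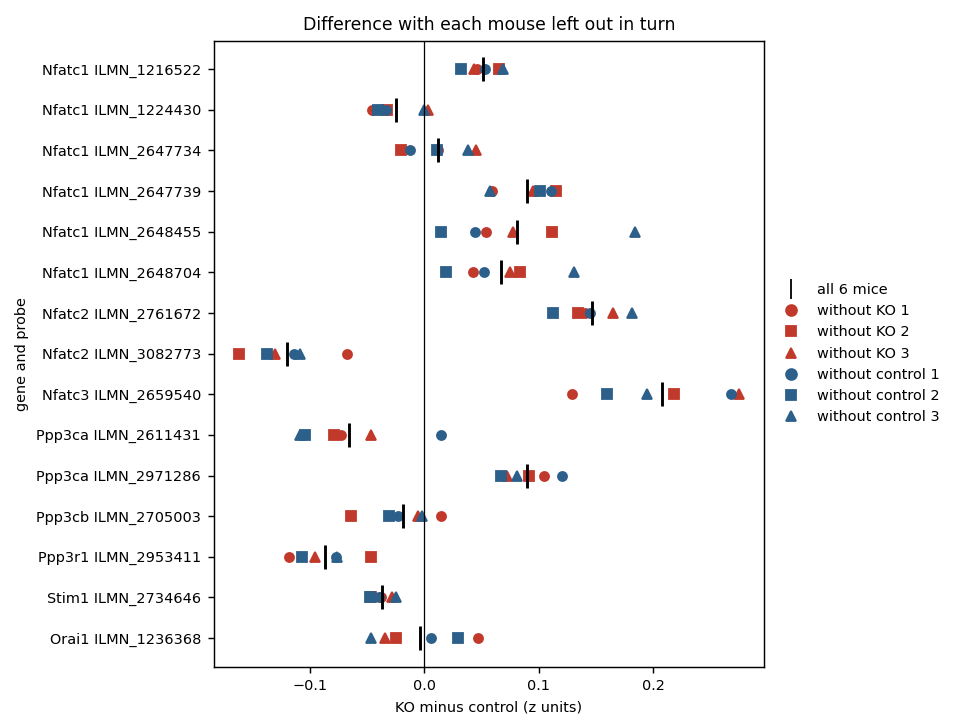
Difference KO minus control in z units for the 15 tested probes, with all mice (black bar) and with each mouse left out in turn (points, red for KO and blue for control mice). The points furthest right for Nfatc1 probes ILMN_2648455 and ILMN_2648704, at 0.184 and 0.131, are those without control 3, and the points furthest left, at 0.0146 and 0.0187, are those without control 2.

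The rest of the pathway was read from 8 lists by role, 78 genes of which 65 had a probe and 57 had a tested one. Of 90 tested probes 0 passed in either direction with limma, 9 (8 higher and 1 lower) had an unadjusted p under 0.05, and 14 (10 higher and 4 lower) had groups that did not overlap. These shares of 10% and 15.6% stand beside 8.82% and 14.1% over all probes, and the median difference was 0.0114.

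In the list of the calcium store and calcium entry 4 of 19 tested probes were higher at an unadjusted p under 0.05, against 4.07% of all probes. Of the 4, 2 belong to Itpr2. The lists were drawn up with earlier results of these data known, so this count describes the list and supports nothing. Calr, the calcium-buffering chaperone of the endoplasmic reticulum, read 1.28, 1.26 and 1.27 in KO mice, against 0.955, 0.965 and 0.89 in control mice. The KO mice lay close together and well above all controls. The difference was 0.331 (SE 0.05, 95% interval 0.223 to 0.439, limma adjusted p = 0.0791), and of 14 alternatives it passed in the one with robust variance (adjusted p = 0.0441, with up to 0.38 in the others). It was 0.308 to 0.345 with 1 mouse left out.

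Cracr2a, a calcium-binding regulator of ORAI1 and STIM1, was read by 3 tested probes, with differences of 0.17 (limma unadjusted p = 0.00245, adjusted p = 0.35), 0.0422 and 0.019. Itpr2, another inositol trisphosphate receptor, gave differences of 0.141, 0.145 and 0.258 on its 3 probes, with unadjusted p-values of 0.0418, 0.0576 and 0.0441 and adjusted values of 0.546 to 0.581. On the brightest of them KO mice read 3.07, 2.86 and 2.77 and control mice 2.73, 2.76 and 2.79, with KO 1 the highest of the 6 and KO 3 between the controls. These genes are outside the rule for named genes and were chosen after their values were seen. So were Camk4, Rcan3, Ppp3cc, Il4, Ifng, Tnf, Cd40lg and Nr4a1 below and every probe of a gene other than its brightest. Tmx1, an oxidoreductase of the store, differed by -0.0786.

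Among the pumps and other channels, Atp2b1, which expels calcium across the plasma membrane, read -0.00732, -0.0186 and -0.0338 in KO mice, against -0.259, -0.125 and -0.0602 in control mice. The KO mice lay above all controls, and the difference was 0.128 (limma unadjusted p = 0.042, adjusted p = 0.546). Without control 1, the lowest mouse, it was 0.0726 (limma unadjusted p = 0.236). Slc8b1, the mitochondrial sodium-calcium exchanger, differed by -0.0792, and by -0.149 without control 1 and -0.0415 without control 3.

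Of 7 genes of calmodulin and its kinases, 6 differences lay above 0 by their brightest probes, with a list median of 0.0402. Over all probes tested 7670 of 15418 lay above 0. Only 1 of the 7 genes had an unadjusted p under 0.05, so these are mostly signs of small differences. Camk1d differed by 0.234 (limma unadjusted p = 0.0287, adjusted p = 0.499), and without control 3, its lowest mouse at 0.0532, by 0.148. Without control 1, its highest control, the difference was 0.355 (limma adjusted p = 0.281). Camk4, a nuclear calmodulin kinase abundant in thymocytes, differed by 0.143, and Camk2g by -0.0344.

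The calcineurin inhibitors included Rcan1, whose transcription is itself a known NFAT response in many cell types. Probe ILMN_2701991 read 0.34, 0.431 and 0.384 in KO mice, against 0.291, 0.282 and 0.211 in control mice. The groups did not overlap, and the difference was 0.124 (limma unadjusted p = 0.0391, adjusted p = 0.536), while a second, dim probe differed by -0.0386. Rcan3 differed by 0.0805 and 0.122 on its tested probes, and Fkbp1a, the binding protein of the calcineurin inhibitor tacrolimus, by -0.058. In the list of other calcineurin and NFAT subunits, Ppp3cc, the gamma catalytic subunit, differed by -0.0152 and Nfat5, a family member that calcineurin does not control, by -0.0559.

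Of the kinases that oppose NFAT in the nucleus, 3 genes lay above 0 and 3 below by their brightest probes, and over all 12 tested probes 8 lay above 0, with a median of 0.0617. Csnk1d, a casein kinase, gave 5 of these 8. Its probe ILMN_2746075, named after its values were seen, had groups that did not overlap and differed by 0.146 (limma unadjusted p = 0.0362, adjusted p = 0.524). Its brightest probe differed by 0.082, by 0.0211 without control 3 and by 0.136 without control 2, while the DYRK kinase gene Dyrk1a differed by -0.0776. Upstream of the calcium signal, the adapter gene Lcp2 (SLP-76) differed by -0.116 and -0.127 on its probes (limma adjusted p = 0.616 and 0.543), and Grap2, the adapter that links it to LAT, by 0.115. Without KO 1 the brighter Lcp2 probe differed by -0.0672 and without control 3 by -0.0721, and without KO 2 Grap2 differed by 0.0594.

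Most genes in the list of known NFAT targets lay on the low side without passing, with 9 of 11 below 0 and a list median of -0.0241. The list leaves out Rcan1, named above as an NFAT response, whose tested probe differed by 0.124. It also leaves out the member Nfatc1, most of whose probes lay above 0. Over all probes the median was -0.000353, with 7748 of 15418 below 0. Of the list's 12 tested probes 0 had an unadjusted p under 0.05, so these are signs of small differences. Egr2, a zinc-finger factor of thymic selection, read 0.408, 0.597 and 0.529 in KO mice, against 0.629, 0.676 and 0.613 in control mice. All KO values lay below all control values, and the difference was -0.128 (SE 0.0596, 95% interval -0.257 to 0.000344, limma adjusted p = 0.566). Without KO 1, the lowest mouse, it was -0.0766. The 9 differences below 0 included the cytokine genes Il4, Ifng and Tnf at -0.0532, -0.0204 and -0.0489 on their brightest probes. The 95% interval of each included 0. Their mean percentiles on the array were 44.8, 55.0 and 66.3 in KO mice and 49.2, 56.9 and 67.3 in control mice, with Il4 close to the brightness filter. Cd40lg, also among the 9, differed by -0.00679, at mean percentiles of 39.0 in KO mice and 41.3 in control mice. It was thus above the 40th percentile in control mice alone. Ctla4, an inhibitory receptor, differed by 0.0497 and by -0.00574 without control 3. Nr4a1 had a dim probe and was not tested.

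**Figure D4:**
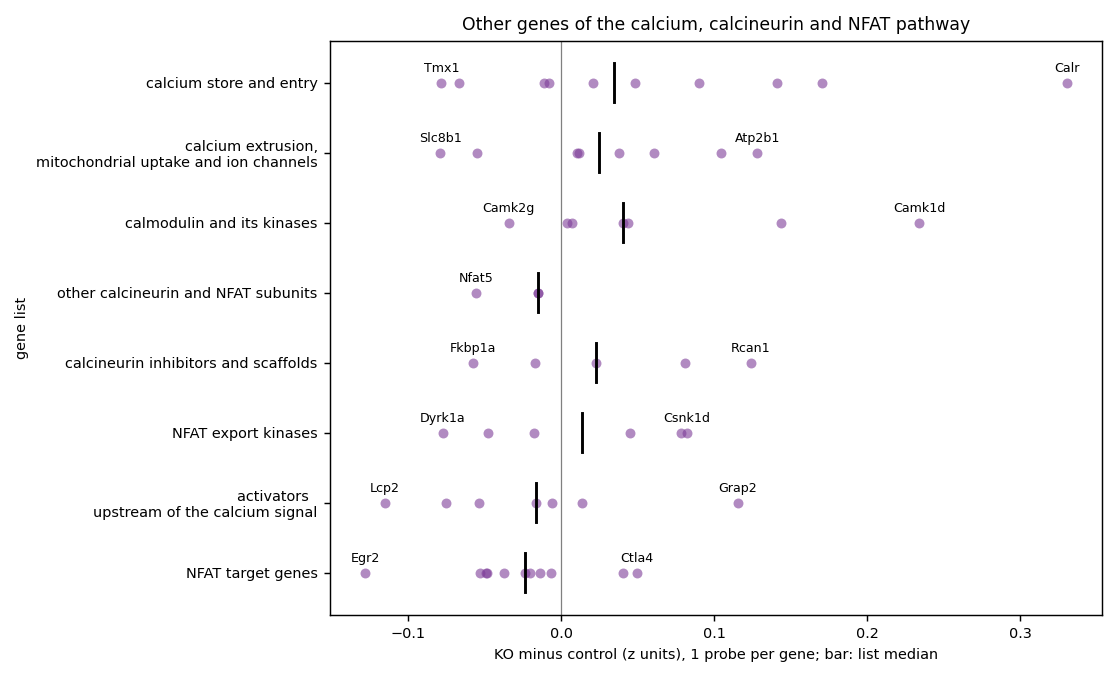
Difference KO minus control in z units for the brightest tested probe of each other pathway gene, by list, with the list median as a black bar. Genes named by the fixed rule are labelled. Calr stands furthest from 0 at 0.331. In the NFAT target list, which leaves out Rcan1, 9 of 11 genes lie below 0.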

How the data were processed

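RNA of 6 mice was read on Illumina MouseRef-8 v2 bead arrays with 1 colour. The deposited values are scores: in each array the 25697 probes have mean 0 and SD 1, a standardisation that the authors applied. The submitters' processing notes name GenomeStudio 2010.1 without a role. The sources used here do not give the background correction, or whether intensities or logarithms were standardised. Detection p-values were not used, and the number of arrays limits the precision. The column medians of the deposited scores were -0.493, -0.489 and -0.491 in KO mice and -0.488, -0.491 and -0.487 in control mice. No column of another sample was present (0).

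The scores were quantile normalized between arrays, since array quartiles differed by up to 6.93% of the interquartile range. Probes with a mean under the 40th percentile (10279 probes) were left out as dim. The genotypes were compared across all probes kept with limma 3.58.1, run in R 4.3.3 (two-sided, lmFit and eBayes with a trend), and adjusted by Benjamini-Hochberg over 15418 probes at 0.05. Intervals are 95% and moderated. Values of dim probes come from a fit on all probes, with no call. The fit was tested on simulated data. Symbols came from the platform annotation, updated through RefSeq gene identifiers (23962 found, 16 not, 1719 probes unnamed), and 19 of 19 member probes matched. Members, lists and tests were chosen with earlier results of these data known. Named genes were Klf4, all member probes and, per list, the genes with the smallest p above and below 0 (brightest probe). Mice numbered alike had deviations that correlated at -0.0338, 0.167 and 0.0346, and 0.167 was the highest of any KO and control pair. With 3 mice per group these values cannot settle whether the numbers pair the samples. The genotypes were compared without pairing. The replicates are separate mice, per the series' design. No slide was recorded to test as a batch.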

Additional observations from a re-analysis of the deposited data

How the results depend on the processing

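All 9 planned kinds of alternative were run, and under each of them 0 member probes passed with limma, while 1 to 4 had an unadjusted p under 0.05. Calls over all probes, 2 with all mice, came to 0 with the filter at the 60th percentile, which leaves out both called Klf4 probes, 1 without a variance trend, 4 with the replicate block and 1 to 4 with 1 mouse left out (4 without KO 1, and 1 without KO 3, control 1 or control 2). The cause of these shifts was not tested for the fits other than the stricter filter. With the replicate block 3 member probes had an unadjusted p under 0.05, as without it. The member median stayed at 0.0122, since a balanced block leaves differences of means as they are. The block lowered the SE of Nfatc3 from 0.0727 to 0.0501 (limma unadjusted p = 0.00137, adjusted p = 0.228). It raised that of Nfatc2 probe ILMN_2761672 from 0.0428 to 0.0453. For Camk1d the block gave a limma unadjusted p of 0.00291 (adjusted p = 0.262). Among the other pathway probes 1 passed with robust variance. The median member difference ran from -0.0203 (without KO 2) to 0.043 (without KO 3) and was -0.00116 with deposited values, 0.00085 with median centring, 0.0311 with no filter and 0.0346 with array weights. Signs turned for Nfatc1 probe ILMN_2647734 with deposited values (-0.00187) and for Ppp3cb with median centring (0.00085) and array weights (0.00738), and the cause was not tested. With 1 mouse left out the ranges of the probes whose sign turned were -0.0455 to 0.00305 for Nfatc1 ILMN_1224430, -0.0203 to 0.0448 for Nfatc1 ILMN_2647734, -0.109 to 0.0147 for Ppp3ca ILMN_2611431, -0.0644 to 0.0144 for Ppp3cb, -0.0471 to 0.047 for Orai1 and -0.00574 to 0.0787 for Ctla4. The alternatives for named pathway genes were added after the data were seen. No slide or background alternative was run, since the table records neither.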
